A study of Mus musculus with 4 samples.

Results

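The 7 mouse genes numbered Bmp1 to Bmp7 were taken by symbol from the 18619 genes of 1 single-cell expression matrix of the intestinal stroma, and all 7 were present. They were described across kinds of stromal cell set by marker genes: subepithelial, villus and submucosal fibroblasts, smooth muscle cells and mural cells. Bone morphogenetic proteins (BMPs) are secreted dimers of the TGF-beta family that bind paired type I and type II serine/threonine kinase receptors, after which SMAD1, SMAD5 and SMAD9 enter the nucleus with SMAD4 and switch on genes such as the Id family. Secreted antagonists such as chordin and noggin bind BMPs and keep them from their receptors. In the intestine BMP signalling is strong in the villus and weak at the crypt base, where submucosal and pericryptal cells secrete antagonists and stem cells are kept. The shared name covers unlike proteins: Bmp2 to Bmp7 encode growth factors, whereas Bmp1 encodes an astacin metalloproteinase (procollagen C-proteinase) of the tolloid family that trims procollagens and cleaves chordin. The label BMP ligands thus applied to 6 of the 7 members.

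The series held 4 samples in 3 groups, 2 of them WT, 1 LATS1/2 KO 1w and 1 LATS1/2 KO 2w, and only LATS1/2 KO 1w was analysed here. Its cells were FACS-sorted PDGFRb+ intestinal stromal cells from adult C57BL/6J mice that carried a tamoxifen-inducible Cre (Pdgfrb-CreERT2), a tdTomato reporter and floxed alleles of both Hippo kinases (Lats1 f/f, Lats2 f/f), taken 1 week after the deletion was induced. LATS1 and LATS2 restrain the coactivators YAP and TAZ, and Cre acts in these mice in any cell that expresses Pdgfrb, not in 1 kind of stromal cell. The muscle layer and serosa had been removed and immune, epithelial and endothelial cells depleted before sorting, so muscle is represented only by cells that this preparation left. The WT and LATS1/2 KO 2w libraries were not analysed here, so every comparison is between kinds of cell inside 1 mutant library, and an effect of the deletion cannot be told apart from the usual state of these cells. Cells of 1 library are not replicates: no test was made, and the 95% intervals in brackets (exact Poisson for levels, exact conditional binomial for ratios, Clopper-Pearson for shares) cover counting error only.

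The library held 4108 cells with a median of 10726 unique molecular identifiers (UMIs) per cell (range 1965 to 35727), and no barcode occurred more than 1 time. Pdgfrb had a UMI in each of the 4108 cells. Lats1 stood at 14.2 and Lats2 at 53.5 UMIs per 1000000 UMIs (CPM, the level used throughout); a 3′ tag need not lie in the deleted part of a gene, so these values check nothing about the label. Clustering without the 7 members, other BMP pathway genes or sex-linked genes gave 9 clusters, of which 4 took a name from their markers. Cluster 6 (205 cells) was FB5-like, with 4 of 5 markers of subepithelial fibroblasts at 3 times the library level or more, although Foxl1 itself was 12.4 CPM there beside 24.9 in cluster 7, 23.6 in cluster 5 and 17.2 in cluster 9, and the pericyte genes Kcnj8 and Abcc9 stood among its 10 leading genes. Cluster 4 (695 cells) was FB4-like, the submucosal fibroblasts, with 5 of 5 markers. Cluster 9 (45 cells) was vFB3-like, a villus fibroblast type, with 4 of 5 markers, and cluster 7 (77 cells) was SMC-like with 5 of 5. Cluster 8 (69 cells) had 6 of 7 mural markers but none of them among its 10 leading genes. Ano1, a listed marker of interstitial cells of Cajal, was among those 10, so the cluster took no name and is called cluster 8. Clusters 1, 2, 3 and 5 (3017 cells, 73.4%) met no list. They are called Adamdec1-high fibroblasts after a villus marker they shared, which was also at 4213.4 CPM in the SMC-like cells. The other markers of that villus list, Shisa3, Serpina3n and Cxcl13, were not shared in this way. Shisa3 and Serpina3n were 0.217 and 0.188 times the library level in cluster 5, and Cxcl13 was 0.256 times in cluster 1. Their highest values in these clusters were 1.24 (Shisa3, cluster 1), 1.64 (Serpina3n, cluster 3) and 2.32 (Cxcl13, cluster 2). Shisa3 was highest in the FB4-like cluster (125.7 CPM). Cluster 5 would have met 4 of 5 vFB3 markers at a limit of 2 times the library level. Defining markers of most other cells were near 0: Pecam1, Vil1, Krt8 and Msln had no UMI, and the immune list summed to 3.5 CPM, the endothelial list to 0.912 and the glial list to 3.65. The list for interstitial cells of Cajal summed to 34.9 CPM, nearly all Etv1, and was highest in the FB5-like cluster (226.5 CPM). Its other markers were highest in cluster 8, Ano1 at 68.6 CPM against 0.977 in the library and Kit at 5.28 from 3 UMIs.

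Bmp4 was by far the most counted of the 6 growth factors in the library and Bmp7 the least. Bmp4 had 24931 UMIs, which is 541.3 CPM (534.6–548.1), and was detected in 95.5% of cells. Bmp2 stood at 91.5 CPM, Bmp5 at 89.5, Bmp6 at 64.6, Bmp3 at 22.8 and Bmp7 at 15.9, and the protease gene Bmp1 at 112.0. Of the 38022 UMIs of the 6 growth factors together, 65.6% (65.1–66.0) were Bmp4. This make-up was not the same in every kind of cell. In FB5-like cells Bmp4 took 32.9% (31.5–34.4), Bmp5 28.9%, Bmp7 14.4%, Bmp3 10.3%, Bmp2 8.97% and Bmp6 4.5%, and the summed level of the 6 was 1725.5 CPM. Bmp4 took 68.9% in Adamdec1-high fibroblasts, 76.4% in FB4-like cells and 81.3% in vFB3-like cells, with summed levels of 879.3, 395.1 and 1030.3 CPM. The FB5-like cells therefore carried the highest summed level and the most even mixture among these classes. UMIs count captured 3′ ends, so such shares compare genes only as far as their 3′ ends are captured alike.

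**Figure D1:**
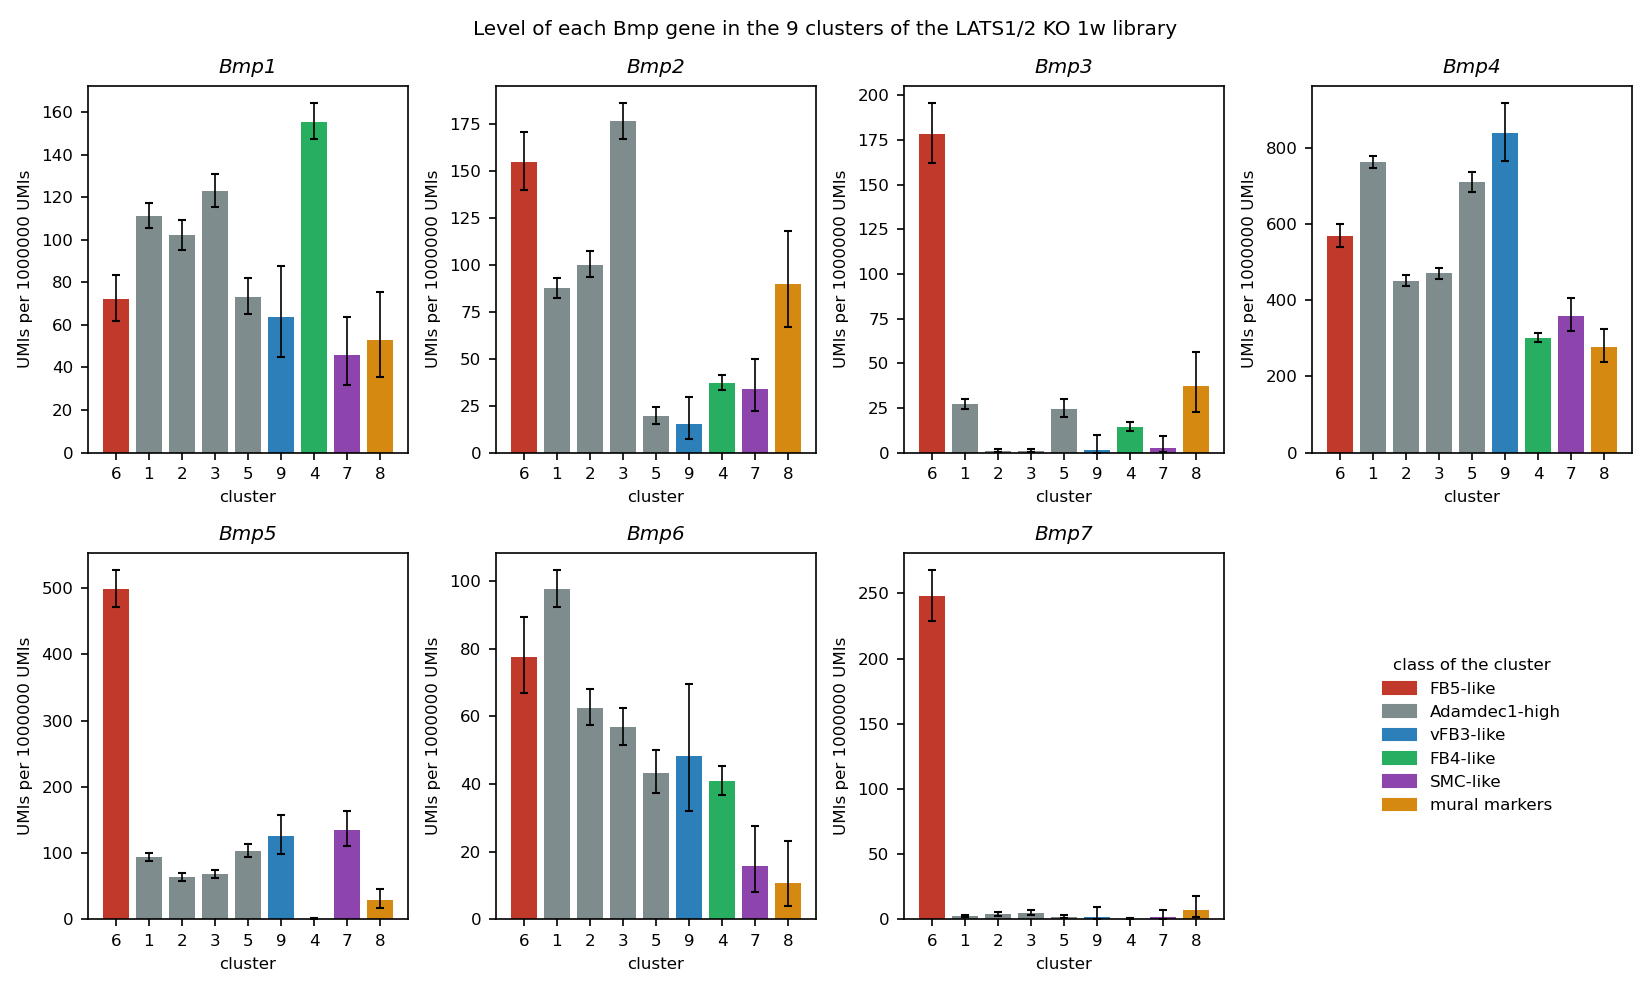
Level of each gene (vertical axis, UMIs per 1000000 UMIs, linear from 0) in each of the 9 clusters (horizontal axis), coloured by class, with exact Poisson 95% intervals. Bmp3, Bmp5 and Bmp7 peak in the FB5-like cluster 6 (178.1, 499.0 and 247.7), Bmp1 in the FB4-like cluster 4 (155.6) and Bmp4 in the vFB3-like cluster 9 (837.7).

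Set against all other cells, FB5-like cells had 3 of the 7 genes at 2 times the level or more (Bmp3, Bmp5 and Bmp7) and 0 at 0.5 times or less. Over all 12385 genes with at least 50 UMIs, 6.31% reached the upper limit in that comparison and 13.4% the lower, and the median ratio was 1.0 beside 1.76 over the 7 genes. The class took its name from Sox6, Pdgfra, F3 and Wnt5a rather than from Foxl1, and Pdgfra-high fibroblasts beneath the epithelium are a known source of BMPs.

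Bmp7 (ENSMUSG00000008999, mm10 chromosome 2, 172868012 to 172940321, minus strand), a growth factor known from kidney and eye development, had 730 UMIs, of which 84.8% lay in the 205 FB5-like cells. Its level there was 247.7 CPM (228.6–268.0). It was 7.04 in cluster 8, 3.12 in Adamdec1-high fibroblasts, 1.72 in vFB3-like, 1.31 in SMC-like and 0.232 in FB4-like cells, the last 4 UMI counts being 103, 1, 1 and 2. No neighbours in this order below the FB5-like cells differed beyond counting error. FB5-like cells stood 97.2 times (79.3–120.1) above all other cells, a ratio that became 62.1 when classes were set cell by cell from their summed markers and 208.9 when an upper bound on free RNA was subtracted. A Bmp7 UMI was found in 87.8% of FB5-like cells and 2.59% of the rest. After thinning every cell to 5000 UMIs the share was 67.0% in FB5-like against 0.146% in FB4-like cells (0.288% unthinned), at median depths of 11829 and 12099 UMIs. The median FB5-like cell held 3 Bmp7 UMIs and the highest 14, whereas no other cell held more than 4.

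Bmp5 (ENSMUSG00000032179, chromosome 9, 75775364 to 75900310, plus strand) encodes a growth factor close in sequence to BMP6 and BMP7. Its promoter and that of Bmp4 are shown because, of the 3 members with an entry in the promoter table, Bmp5 had the widest range of level over the classes (499.0 to 0.811 CPM) and Bmp4 the narrowest (837.7 to 278.0). The 250 bases before the RefSeq start (GRCm38.p6) are chr9:75775115-75775364, plus strand, for Bmp5 and chr14:46390670-46390919, minus strand, for Bmp4, with CG pairs in capitals:
Bmp5: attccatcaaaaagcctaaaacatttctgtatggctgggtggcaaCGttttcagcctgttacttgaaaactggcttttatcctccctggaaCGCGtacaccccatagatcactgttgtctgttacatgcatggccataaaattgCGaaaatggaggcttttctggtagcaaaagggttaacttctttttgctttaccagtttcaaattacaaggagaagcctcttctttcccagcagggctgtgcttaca
Bmp4: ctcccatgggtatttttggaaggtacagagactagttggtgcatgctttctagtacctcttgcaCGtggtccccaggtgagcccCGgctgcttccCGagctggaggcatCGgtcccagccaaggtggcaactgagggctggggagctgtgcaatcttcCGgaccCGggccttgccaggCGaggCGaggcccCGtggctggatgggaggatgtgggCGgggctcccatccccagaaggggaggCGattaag
The Bmp5 window had 4 CG pairs and 42.8% G and C, the Bmp4 window 11 CG pairs and 63.2%. The median over 32851 promoters of that length was 6 CG pairs, and 44.4% of them had as few as Bmp5 or fewer. The windows of Bmp4, Bmp5 and Bmp6 were the 3 that the promoter table held, and none of the 3 contained, on either strand, the TEAD motif GGAATG (12.6% of all promoters), the forkhead motif TGTTTAC (3.17%) or the GLI motif GACCACCCA (0.225%). The shorter TEAD core GGAAT, which GGAATG contains, was found in 34.2% of all promoters and in the Bmp5 window, on the minus strand at its first base, where the window ends before the next letter. These letters were searched in this window only, and nothing follows for the factors.

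Bmp5 had 1247 UMIs in FB5-like cells, a level of 499.0 CPM (471.7–527.5). It was 135.1 in SMC-like, 125.6 in vFB3-like, 81.0 in Adamdec1-high, 28.2 in cluster 8 and 0.811 in FB4-like cells. SMC-like and vFB3-like cells did not differ beyond counting error (ratio 1.08, 0.789–1.47), and each other neighbouring pair in this order had a ratio whose interval lay above 1. FB5-like cells stood 7.57 times (7.07–8.09) above all other cells and held 30.3% of the Bmp5 UMIs. Unlike Bmp7, Bmp5 was thus spread over most of the stroma, with the FB4-like cells as the exception. Those 695 cells held 7 Bmp5 UMIs among 8633412, which is 0.906% of the library level and under the bound for free RNA (7.73 CPM for Bmp5). A Bmp5 UMI occurred in 97.1% of FB5-like cells and 1.01% of FB4-like cells, or 89.0% and 0.585% at 5000 UMIs. The median FB5-like cell held 6 Bmp5 UMIs and the highest 22.

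Bmp3 (ENSMUSG00000029335, chromosome 5, 98854415 to 98884396, plus strand) encodes an atypical member that can oppose other BMPs at activin type II receptors. Its level was 178.1 CPM (161.9–195.4) in FB5-like cells, 37.0 in cluster 8, 14.2 in FB4-like, 13.9 in Adamdec1-high, 2.62 in SMC-like and 1.72 in vFB3-like cells. FB4-like and Adamdec1-high cells did not differ beyond counting error (ratio 1.03, 0.835–1.26), and the vFB3-like level rested on 1 UMI and the SMC-like level on 2. FB5-like cells held 42.4% of all Bmp3 UMIs, beside 43.6% in the more numerous Adamdec1-high cells, and stood 12.8 times (11.3–14.5) above the rest. That ratio was 22.3 in the columns marked M and 9.10 in those marked F, marks that divide the cells of this library by whether they held an Xist UMI. A Bmp3 UMI was found in 77.1% of FB5-like cells and 8.30% of the others. After thinning the share was 58.0% in FB5-like cells, 12.5% in cluster 8, 10.2% in cluster 5 and 9.09% in cluster 1. Cluster 3, at a median depth of 9944 UMIs, had 0.139% (0.822% unthinned). The most Bmp3 UMIs in a cell were 10 among FB5-like cells and 20 elsewhere.

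Bmp2 (ENSMUSG00000027358, chromosome 2, 133552159 to 133562885, plus strand), a close relative of Bmp4, had a gradient rather than a restricted pattern. Its level was 154.9 CPM (139.8–171.1) in FB5-like, 103.6 in Adamdec1-high, 89.7 in cluster 8, 37.2 in FB4-like, 34.1 in SMC-like and 15.5 in vFB3-like cells. Adamdec1-high cells and cluster 8 did not differ beyond counting error, nor did FB4-like and SMC-like cells. FB5-like cells stood 1.76 times (1.58–1.96) above the rest, and highest over lowest class was 10.0 (5.22–22.0). Among single clusters Bmp2 was highest not there but in the Adamdec1-high cluster 3, at 176.6 CPM (167.4–186.1), and it was 19.5 in cluster 5 of the same class. Cluster 3 also had Fos, an immediate early gene, at 2531.5 CPM and cluster 5 at 55.8, and the part of that response in the Bmp2 level was not tested. In cells with at most 5% mitochondrial UMIs cluster 8 became the highest class, at 184.9 CPM.

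Bmp6 (ENSMUSG00000039004, chromosome 13, 38345107 to 38500302, plus strand), known as the signal by which iron raises hepcidin in liver, differed modestly between the fibroblast classes. Its level was 77.6 CPM (67.1–89.4) in FB5-like, 72.2 in Adamdec1-high, 48.2 in vFB3-like, 40.9 in FB4-like, 15.7 in SMC-like and 10.6 in cluster 8. FB5-like over Adamdec1-high cells was 1.08 (0.924–1.25), so these could not be ordered, and cluster 1 was the highest single cluster at 97.7 CPM. FB5-like over all other cells was 1.22 (1.05–1.41), and this direction turned in the columns marked F (0.949) while it was 1.65 in those marked M. The SMC-like cells and cluster 8 were lowest, with 12 and 6 UMIs.

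Bmp4 (ENSMUSG00000021835, chromosome 14, 46383520 to 46390669, minus strand), the main mesenchymal BMP of the gut in mouse development, was detected in every class. Its level was 837.7 CPM (764.9–915.5) in vFB3-like, 605.5 in Adamdec1-high, 568.2 in FB5-like, 359.3 in SMC-like, 301.7 in FB4-like and 278.0 in cluster 8. The 2 lowest classes were the only neighbours in this order that did not differ beyond counting error (ratio 1.09, 0.924–1.28). The vFB3-like cells stood 1.56 times (1.42–1.70) above all others and the FB4-like cells at 0.506 times (0.485–0.527). Single Adamdec1-high clusters came close to the vFB3-like level, cluster 1 at 761.5 CPM (746.3–777.0) and cluster 5 at 709.7. The range from highest to lowest class was 3.01 (2.51–3.63), narrow beside 615.5 (297.8–1534.0) for Bmp5. The median FB5-like cell held 6 Bmp4 UMIs, as many as of Bmp5.

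Bmp1 (ENSMUSG00000022098, chromosome 14, 70474558 to 70520234, minus strand), the protease, was highest in another class than any of the growth factors. Its level was 155.6 CPM (147.3–164.1) in FB4-like, 107.0 in Adamdec1-high, 72.0 in FB5-like, 63.6 in vFB3-like, 52.8 in cluster 8 and 45.9 in SMC-like cells. Among the last 4, no neighbours in this order differed beyond counting error. FB4-like cells stood 1.53 times (1.43–1.62) above the rest, and here Bmp2, Bmp5 and Bmp7 were at 0.5 times or less while no member reached 2 times (backgrounds 7.81% and 3.78%). Of 11 tested genes for tolloid partners and substrates, 3 were at 2 times or more in FB4-like cells and 0 at 0.5 times or less: Pcolce2, an enhancer of procollagen processing (537.7 CPM against 39.5 in all other cells), the proteoglycan Dcn (22161.1 against 8926.0) and Postn (451.7 against 96.7). Postn was higher still in SMC-like cells (558.6 CPM), the class with the lowest Bmp1. Col1a1, whose product BMP1 trims, stood at 4088.3 in FB4-like, 3847.7 in vFB3-like, 2992.8 in Adamdec1-high and 1342.6 in FB5-like cells. Its ratio in FB4-like over all other cells was 1.45 (1.43–1.47). Bmp1 did not have this order, being lower in vFB3-like (63.6) than in Adamdec1-high cells (107.0). The other tolloid genes Tll1 and Tll2 had 14 and 7 UMIs in the whole library.

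Several members were often counted in the same FB5-like cell. At 5000 UMIs the median FB5-like cell held UMIs of 4 of the 6 growth factors, the median Adamdec1-high cell of 2 and the median FB4-like cell of 1. Exactly 4 were seen in 33.0% of 200 FB5-like, 3.48% of 2962 Adamdec1-high and 0.292% of 684 FB4-like cells, and all 6 in 11 FB5-like cells. In 20.3% of FB4-like cells none of the 6 was seen. Within the FB5-like cells no split of Bmp3, Bmp5 and Bmp7 into separate cells was detectable at this depth. Bmp7 was seen in 67.4% (60–74.2) of cells with a Bmp5 UMI and 63.6% (40.7–82.8) of cells without, and Bmp3 in 54.5% (45.7–63.1) of cells with Bmp7 and 65.2% (52.4–76.5) without.

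**Figure D2:**
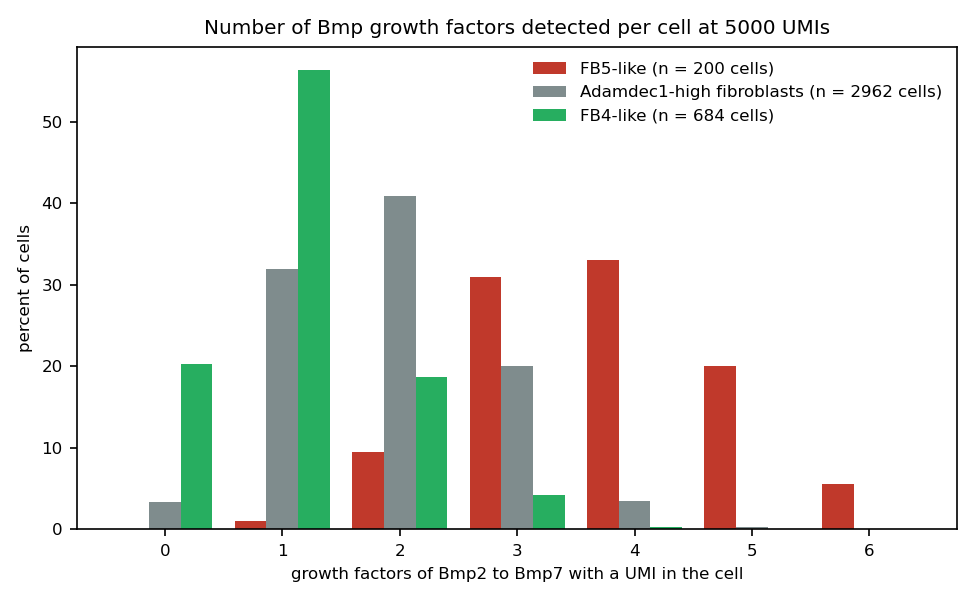
Percent of cells (vertical axis) by the number of Bmp2 to Bmp7 with at least 1 UMI (horizontal axis), after thinning to 5000 UMIs, in 200 FB5-like, 2962 Adamdec1-high and 684 FB4-like cells. FB5-like cells centre on 3 and 4, Adamdec1-high cells on 2 and FB4-like cells on 1.

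The Adamdec1-high class hid differences between its clusters. Clusters 1 and 5 (1414 cells) had the growth factor gene Vegfc above the level of the class, and clusters 2 and 3 (1603 cells) below it, a split made after their values had been seen. Bmp3 was 26.4 CPM (24.0–29.0) in the Vegfc-high and 1.10 (0.652–1.74) in the Vegfc-low clusters, a ratio of 24.0 (15–41). The difference had the same direction in the columns marked M (36.3, 15.2–113.5) and F (17.7, 10.2–33.6), and with nothing regressed out the ratio was 48.2 (24.3–112.4). In the Vegfc-low clusters Bmp3 lay under its bound for free RNA, 1.97 CPM. Bmp4 (1.63), Bmp5 (1.46) and Bmp6 (1.41) were moderately higher in the Vegfc-high clusters. Bmp2 went the other way at 0.517 (0.482–0.555), as did the few Bmp7 UMIs at 0.443 (0.283–0.682), while Bmp1 was near even at 0.910. Of the 7 genes, 1 was thus at 2 times or more (2.79% of all genes tested) and 1, Bmp7, at 0.5 times or less (3.55%). The Bmp7 ratio passed that limit in the M columns (0.277, 0.119–0.574) but not in the F columns (0.640, 0.351–1.16) or with nothing regressed out (0.544), and Bmp2 passed it in the M columns (0.480) and not in F (0.565). Beside these stood Vegfc at 5.67, the YAP/TAZ target genes Amotl2 at 3.8 and Cyr61 at 2.23, and the immediate early genes Fos at 0.674 and Junb at 0.653, and their part in the BMP levels was not tested. Bmp2 was unequal within each side, at 87.7 CPM in cluster 1 against 19.5 in cluster 5 and 100.2 in cluster 2 against 176.6 in cluster 3, so its ratio does not describe all 4 clusters. The same held for Cyr61 (659.6 and 124.7 CPM in clusters 1 and 5, 125.6 and 356.9 in clusters 2 and 3) and Fos (1176.7 and 55.8, 225.2 and 2531.5). Bmp3 did not share this: it was 27 and 24.6 in clusters 1 and 5, and 1.06 and 1.14 in clusters 2 and 3.

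**Figure D3:**
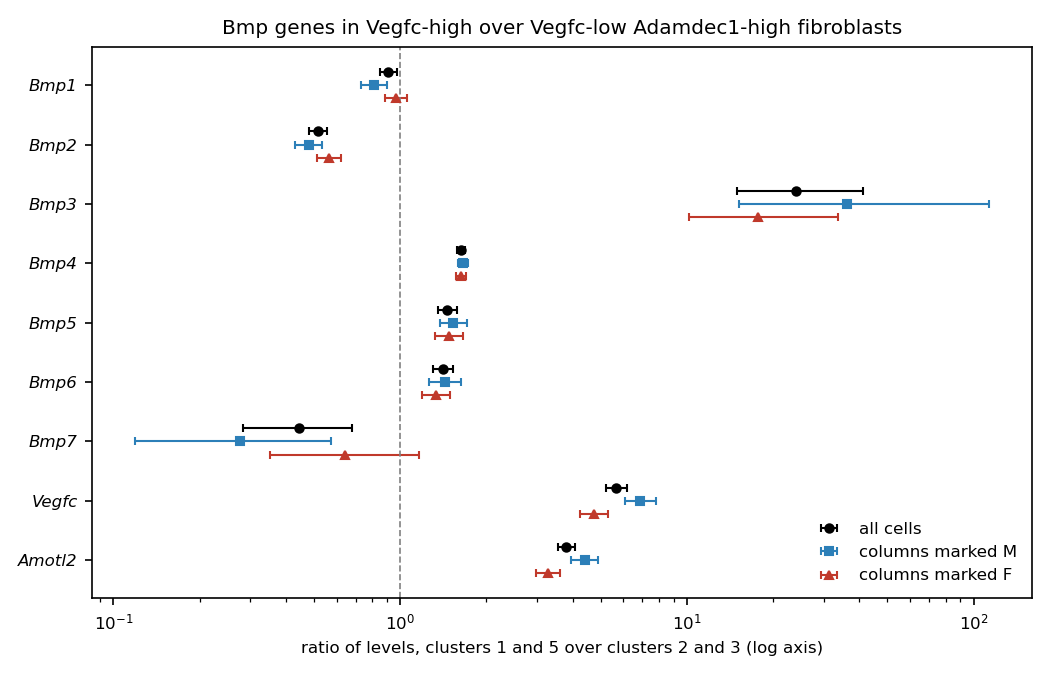
Ratio of levels (horizontal log axis) in the Vegfc-high clusters 1 and 5 over the Vegfc-low clusters 2 and 3 for each gene (vertical axis), in all cells and in the columns marked M and F, with exact 95% counting intervals and a dashed line at 1. Bmp3 lies far to the right (24.0), Bmp4, Bmp5 and Bmp6 just right of 1, and Bmp2 left of it (0.517).

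Other classes had fewer BMPs above the rest. SMC-like cells had 5 of the 7 genes at 0.5 times or less (background 14.8%) and 0 at 2 times or more (7.44%), the exceptions being Bmp4 (0.660) and Bmp5 (1.52, 1.24–1.85). Cluster 8 had 4 at 0.5 times or less (16.8%) and 0 at 2 times or more (10.2%). Adamdec1-high cells had 2 at 0.5 times or less, Bmp3 and Bmp7 (4.76%), and 0 at 2 times or more (2.41%). In vFB3-like cells 3 were at 0.5 times or less, Bmp2, Bmp3 and Bmp7 (18.1%), and 0 at 2 times or more (8.99%). The columns marked M and F gave the same highest class for each gene except Bmp6. Within FB5-like cells Bmp5 was 578.3 CPM in M and 439.1 in F columns, Bmp4 653.7 and 503.7, and Bmp7 232.5 and 259.2. Which animals these columns came from is not stated in the labels, so the difference cannot be told apart from one between mice.

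The other genes of the pathway, 76 by list, 70 of them in the file and 62 with at least 50 UMIs, were laid beside the members. In the FB4-like cells, lowest for Bmp5, the chordin-like antagonist Chrdl1 was 64.5 CPM against 16.4 in the library. Grem1 was 799.6 CPM against 225.8, but it is also a marker that named the class. Follistatin, Fst, was 6.49 against 1.45, with 56 of its 67 UMIs in these cells, so that it passed the 50 UMI limit only through them. These were the 3 at 2 times or more (background 3.78%) of 13 tested antagonists and modulators, of which only Chrdl1 neither named the class nor passed the limit through it. Chrdl1 was not particular to these cells: cluster 8 had 176.0 CPM. Vwc2 was at 0.5 times or less (7.81%). In FB5-like cells 5 of the 13 were at 0.5 times or less (13.4%), Grem1 among them at 4.4 CPM, and 3 were at 2 times or more (6.31%): Nbl1, a DAN-family antagonist (2781.2 against 775.5), Chrd (82.4 against 30) and Crim1 (183.7 against 88.2), with a median ratio of 0.536 beside 1 over all genes tested. Crim1 was higher still in cluster 8 (541.9 CPM), where it and Chrdl1 were at 2 times or more (10.2%) and 5 of the 13 at 0.5 times or less (16.8%). Fst, 1 of these 5, had 0 UMIs in cluster 8, which allows a ratio of up to 4.53. Neither FB4-like nor FB5-like cells were thus free of antagonist transcripts, but the genes differed. Noggin (Nog) had 41 UMIs in the library and was not tested.

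Among the receptors the pattern depended on the class. In FB5-like cells 0 of the 10 receptors and co-receptors were at 2 times or more and 1, Bmpr1b, was at 0.5 times or less, shares near those of all genes tested (6.31% and 13.4%). Bmpr1b had 0 UMIs in FB5-like cells, which allows a ratio of up to 0.755. Bmpr1a ranged from 62.0 to 103.6 CPM and Bmpr2 from 81.8 to 237.4 over the 9 clusters. The highest Bmpr2 level, with Acvrl1 at 211.6 CPM and the co-receptor Eng at 153.1, was in the vFB3-like cells, where these 3 were at 2 times or more and Rgma, Rgmb and Bmpr1b at 0.5 times or less. Bmpr1b had 0 UMIs in these 45 cells, which allows a ratio of up to 3.39. The vFB3-like cells also had 7 of the 10 tested feedback and target genes at 2 times or more (8.99% of all genes tested) and 0 at 0.5 times or less (18.1%), with a median ratio of 2.97 beside 1.05 over all genes tested. Among them were Id1 (63.6 CPM against 10.7), Id3 (1587.6 against 463.8), the inhibitory Smad6 (44.7 against 7.12) and Smad7 (185.8 against 55.4), and Atoh8 (53.3 against 6.36). Hey1, another of the 7, had 4 UMIs and a ratio of 2.48 (0.666–6.52), which includes 1. Bmp4 had its highest class level in the same 45 cells, where 9 of the 13 antagonists and modulators were at 0.5 times or less (18.1% of all genes tested; median ratio 0.266 beside 1.05) and Bmper (56.8 CPM against 3.39) and Twsg1 at 2 times or more (8.99%). Fst, 1 of the 9, had 0 UMIs there, which allows a ratio of up to 4.43. In FB5-like cells 2 target genes, Id1 and Id2, were at 2 times or more (6.31%) and 5 at 0.5 times or less (13.4%): Id4, Smad7, Bambi, Hey1 and Atoh8. The median ratio of the 10 was 0.520 beside 1 over all genes tested, and Hey1 had 0 UMIs (ratio up to 0.502). In cluster 8, 4 of the 10 target genes, Id1 to Id4, were at 2 times or more (10.2%), and Smad6 with 2 UMIs was at 0.5 times or less (0.491; 16.8%). Eng and Acvrl1 are also endothelial genes, and Adgrf5, Slco2a1 and Plvap, known from endothelium too, were among the 10 leading genes of the vFB3-like cells. The summed endothelial markers Pecam1, Cdh5 and Kdr had 0 UMIs in these 45 cells, which allows up to 6.34 CPM for each, and their highest level was 8.80 CPM, in cluster 8. Pecam1 had 0 UMIs in the whole library. CD31+ cells had been depleted, and cells positive for Pecam1 and Cdh5 left out after a first clustering, before the matrix was deposited. The part of endothelial cells in these levels was not tested.

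**Figure D4:**
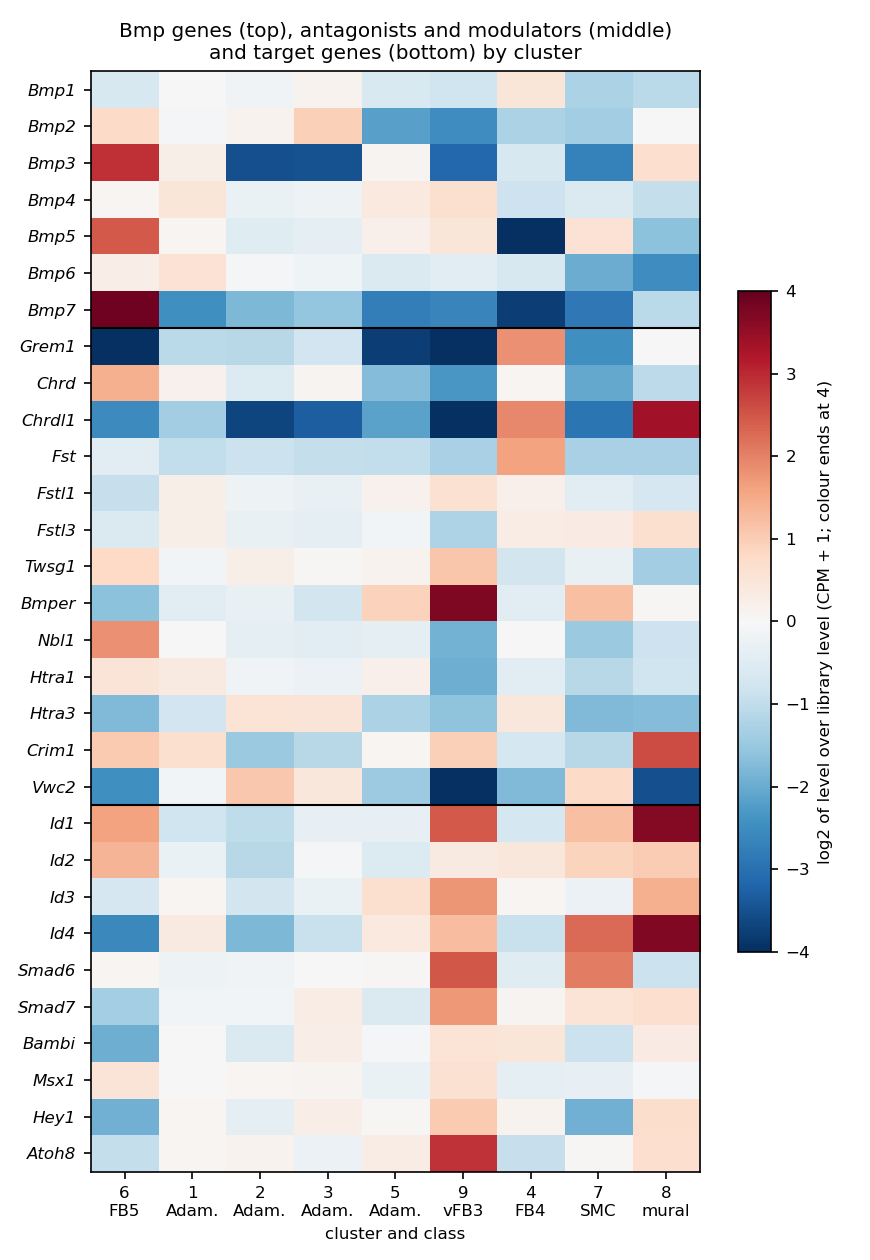
Log2 of the level in each cluster over the library level, both as CPM + 1 (colour, ends at 4 on either side), for the 7 Bmp genes, 13 antagonists and modulators and 10 target genes (rows) in the 9 clusters (columns). Cluster 4 (FB4-like) is red for Grem1, Chrdl1 and Fst and blue for Bmp5 and Bmp7, and cluster 9 (vFB3-like) is red for most target genes.

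Genes with the pattern most like each member were ranked by Pearson r of log2(CPM + 1) over the 9 clusters among 8191 genes with at least 500 UMIs. The clusters share 1 library, and with 9 points a high r is easily reached among so many genes. For Bmp7 the first were Vps52 (r = 0.972), which ranged only from 13.8 to 21.2 CPM, and the transcription factor gene Etv1 (0.964), which ranged from 10.2 to 223.3 with its highest level in the same cluster 6. For Bmp5 the first was Mapre3 (0.961, 12.9 to 49.2 CPM), followed by Pawr (0.941), Chd7 (0.930) and the collagen gene Col27a1 (0.930). For Bmp1 it was the collectin gene Colec12 (0.980, 45.9 to 313.0 CPM), highest in cluster 4, with the complement gene C1ra (0.969) close behind. For Bmp3 Fuz led (0.926), for Bmp2 Fyco1 (0.952), for Bmp4 the thrombin receptor gene F2r (0.953) and for Bmp6 Lypla2 (0.953). Counting of 1 member as another was checked on the 22 GENCODE transcripts of the 7 genes: runs of 31 bases were shared by 3 of 21 pairs, at most 4 runs a pair, and none of these pairs was among Bmp5, Bmp6 and Bmp7. Runs of 20 bases were shared by 9 of 21 pairs, with 10 between Bmp6 and Bmp7, 8 between Bmp5 and Bmp6 and 4 between Bmp5 and Bmp7.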

How the data were processed

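Sorted cells were profiled with the 10x Chromium 3′ v3 kit. The authors mapped reads to mm10 with Cell Ranger 3.0.2 and, per the study's methods, kept cells with 1000 to 6000 genes and at most 7% mitochondrial UMIs, and genes seen in 3 cells, and removed immune and endothelial cells. The deposited values were natural log values, ln(1 + UMIs/cell total × 10000), computed by the authors in Seurat (3.0.1 in the submitters' processing notes). UMIs were recovered from them: 100.00% of 13789523 nonzero values were whole multiples (tolerance 0.001). Seurat 5.3.0 (R 4.3.3) clustered the cells on 1957 variable genes, regressing UMIs and mitochondrial percent, with 30 components and resolution 0.5. A cluster took the marker list with the largest share of markers at 3 times the library level, with at least 3 such markers and no more of another list than of its own among its 10 leading genes. Levels had been looked at when this rule was made. The members and lists were chosen with earlier results of these data known. Named genes were the members, pathway lists, markers, leading genes and the 5 most alike in pattern; Kcnj8, Abcc9, Plvap, Vegfc, the YAP/TAZ targets and immediate early genes were added after values were seen. Of these, 1 listed gene and 1 leading gene are not reported here.

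Levels were UMIs per 1000000 UMIs of a class, without a pseudocount, and a fold call needed 50 UMIs in the library. Shares used cells thinned to 5000 UMIs, leaving out 94 cells, 5 of them FB5-like. The bound on free RNA, 8.64% of a gene's library level, rests on UMIs of Y-linked genes in the 2004 cells that had 5 or more of Xist. Scrublet in scanpy 1.11.5 called 8 doublets (0.195%), too few for a working test, and none was removed beyond the authors' sort and gene limit. Ratios and intervals were tested on simulated data. Coordinates are GENCODE M21 (mm10). Promoters are RefSeq (GRCm38.p6), where 3 of 7 members matched.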

Additional observations from a re-analysis of the deposited data

How the results depend on the processing

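No paired analysis was possible because 1 library was analysed and no test was made. The ratio of each member in its highest class over all other cells was recomputed in 70 alternatives: 54 kept it inside its counting interval, 15 moved it further, and 1 turned it, Bmp6 in the columns marked F (0.949; M 1.65). The highest class held in 68 of 70, the others being Bmp6 in F columns and Bmp2 at the mitochondrial limit. With at most 5% mitochondrial UMIs (38 FB5-like cells left) Bmp1 was 1.29, Bmp3 18.3, Bmp4 1.80 and Bmp5 8.60, and the SMC list was met by 511 cells, 8 of them SMC-like otherwise. With classes set cell by cell Bmp3 was 10.1, Bmp4 1.28 and Bmp7 62.1. In the M and F columns Bmp1 was 1.67 and 1.42 and Bmp3 22.3 and 9.10. With the free RNA bound subtracted Bmp3 was 14.8, Bmp5 8.44 and Bmp7 208.9. Resolutions 0.2 and 1.0, no regression, no immediate early genes and no high doublet scores moved none of the 7 beyond its interval. All but the last of these settings left the same 205 FB5-like and 45 vFB3-like cells in their classes. Their ratios for Bmp2 to Bmp7 were therefore repeats of the main ones, and the 54 include these repeats. Shares of cells with a UMI in the highest class follow depth by construction: at 2000 UMIs and without thinning they were 26.0% and 79.0% for Bmp1, 20% and 65.4% for Bmp2, 30.2% and 77.1% for Bmp3, 61.0% and 97.1% for Bmp5, 14.1% and 55.1% for Bmp6 and 42.4% and 87.8% for Bmp7, and 80.0% at 2000 UMIs for Bmp4. For the split of the Adamdec1-high clusters, alternatives chosen after seeing the data kept every direction (42 of 42). Bmp3 ranged from 16.6 to 48.2 and Bmp7 from 0.277 to 0.640. Other causes of these moves were not tested. Depth limits Bmp7 outside FB5-like cells and all members in the 45 vFB3-like, 77 SMC-like and 69 cluster 8 cells.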

Other observations

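Of 10 other TGF-beta family ligand genes with at least 50 UMIs, 2 were at 2 times or more in FB5-like cells (6.31% of all genes tested) and 3 at 0.5 times or less (13.4%), namely Gdf6, Gdf10 and Tgfb2, and the median ratio was 1.10. Gdf10 had 1 UMI in these cells and a ratio of 0.194 (0.00485–1.11), which includes 1. The 2 higher genes encode activin subunits: Inhbb (112.8 CPM against 6.8 in the library) and Inhba (102.8 against 15.7). Inhbb was at 1.68 CPM or less in each other cluster, and with 282 of its 313 UMIs in FB5-like cells it passed the 50 UMI limit only through them. The growth differentiation factor genes Gdf6 (69.1 against 20.8) and Gdf10 (8.22 against 1.98) were at 2 times or more in FB4-like cells (3.78%), where Bmp5 was lowest, while Gdf15, Inhba and Inhbb were at 0.5 times or less (7.81%) and the median ratio was 0.992. Gdf10 had 71 of its 91 UMIs there and passed the limit only through them. Gdf15, a stress-responsive member, was at 142.5 CPM in cluster 8 against 3.73 in the library.

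At resolution 1.0 the FB4-like cells divided into 166 cells with more Vegfc and 529 with less (ratio 3.40), a division looked at after its values had been seen. Across it Bmp3 had a ratio of 2.90 (2.00–4.20), Bmp4 1.96 (1.81–2.12) and Bmp6 1.85 (1.48–2.30), and all 3 were also higher in the Vegfc-high Adamdec1-high clusters, as was Bmp5 (1.46). Bmp2 was even at 0.995 (0.764–1.29), unlike its 0.517 there, and Bmp5 with 7 UMIs gave no order (0.491, 0.0107–4.05). Fos stood at 0.593 and Amotl2 at 4.06 across the same division, and their part in the BMP levels was not tested.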
